A study of Homo sapiens with 9 samples.

Results

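The endoplasmic reticulum (ER) folds the proteins that a cell secretes or places in its membranes, and the genes described here encode the machinery for it. They are 35 genes: 4 sensors and transcription factors of the unfolded protein response, 6 lumenal chaperones and their partners, 3 co-chaperones of HSPA5, 4 protein disulfide isomerases, 2 lectin chaperones, 7 genes of ER-associated degradation, 5 subunits or partners of the SEC61 translocon and 4 subunits of the translocon-associated protein (TRAP) complex. They were chosen by symbol from what the proteins do and by no measured value, but with earlier results of these data known. All 35 were found among the 29972 genes of the deposited table, and all 35 passed the filter on low values, as did 13498 genes in all.

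The cells were H2030, a long-established line from a human non-small cell lung cancer. All 3 groups were transfected with small interfering RNA (siRNA) at 20 nmol/L with the same lipid reagent. The control group received a non-targeting pool, the siMENA11a group a mix of siRNAs against exon 11a of ENAH, and the siMENA group a commercial pool against all forms of ENAH, a gene whose protein hMENA elongates actin filaments. The control pool and the siMENA pool come from different product lines of the same maker. There were 3 libraries of ribosome-depleted total RNA per group, and the labels do not say that these came from separate cultures, so p-values measure only the spread between libraries, which may be technical.

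In the unfolded protein response, misfolded proteins in the ER activate 3 sensors in its membrane. IRE1 (gene ERN1) splices the XBP1 messenger RNA, PERK (gene EIF2AK3) phosphorylates the translation factor eIF2 alpha and so favours translation of ATF4, and ATF6 is cut in the Golgi to release a transcription factor. Spliced XBP1 and cut ATF6 are known to act through ER stress response elements (ERSE) in the promoters of chaperone genes. The protein made is threaded into the ER through SEC61, folded by the HSPA5 and calnexin systems, and, if it fails to fold, returned to the cytosol for degradation.

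Values are transcripts per 1000000 (TPM), a level per transcript length, divided by a size factor for each library and called scaled TPM below. The factors ran from 0.995 to 1.04 for control libraries, from 0.886 to 0.973 for siMENA11a and from 1.06 to 1.09 for siMENA. TPM keeps no read count, so the depth behind each value is unknown. The targeted gene ENAH lay at 43.2 to 44.7 scaled TPM for control, from 46.7 to 48.7 for siMENA11a and from 6.89 to 7.48 for siMENA. As it sums all forms of ENAH, this value bears on the siMENA label alone and gives no check of exon 11a. Of 6 epithelial markers, 4 reached a mean of 1 scaled TPM and CDH1 and KRT19 did not, and 0 of 7 lung lineage markers did. Of 8 leukocyte markers, 2 (CD14 and CD68) reached that level and CD3E and MS4A1 were listed at 0 in all libraries. The leukocyte sum, nearly all of it CD68, which is also a lysosomal gene, ran from 97.4 to 105 scaled TPM for control, from 125 to 131 for siMENA11a and from 41.1 to 49.5 for siMENA. The fibroblast sum of 6 genes (2 of them at a mean of 1 or more) ran from 8.85 to 9.44, from 7.82 to 8.24 and from 15.4 to 17.3 in the same order, and the epithelial sum from 356 to 368, from 315 to 329 and from 312 to 331. RN7SL transcripts, RNA of the signal recognition particle, took 39.7% to 41.1% of the TPM of control libraries, 44.3% to 45.2% of siMENA11a and 39.6% to 40.6% of siMENA. The part of these sums and of RN7SL in the results below was not tested.

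The promoters of 10 of the 32 members with an entry in the RefSeq promoter table (GRCh38.p14, 250 bases before to 50 after each annotated start) hold an ERSE (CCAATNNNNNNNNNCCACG) or an ERSE-II (ATTGGNCCACG) on either strand. Stretches of 8 of them are shown because members that carry the same element moved in different directions. XBP1 and HERPUD1 were higher in both knockdowns than in control, HSPA5, CALR and SDF2L1 were lower in both, and HSP90B1, PDIA6 and CANX were called lower in siMENA and not in siMENA11a. Capitals mark the element, and each line runs 5′ to 3′ on the gene's own strand.
XBP1, chr22:28800583-28800641, minus strand: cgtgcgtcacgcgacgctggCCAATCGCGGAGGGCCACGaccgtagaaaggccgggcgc
HERPUD1, chr16:56932005-56932055, plus strand: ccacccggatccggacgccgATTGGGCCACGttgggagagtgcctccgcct
HSPA5, chr9:125241371-125241429, minus strand: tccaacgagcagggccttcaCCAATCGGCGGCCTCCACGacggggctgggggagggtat
CALR, chr19:12938364-12938422, plus strand: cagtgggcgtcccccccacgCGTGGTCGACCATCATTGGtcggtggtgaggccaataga
SDF2L1, chr22:21642094-21642144, plus strand: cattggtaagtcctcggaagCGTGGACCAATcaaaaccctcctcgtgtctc
HSP90B1, chr12:103930196-103930359, plus strand: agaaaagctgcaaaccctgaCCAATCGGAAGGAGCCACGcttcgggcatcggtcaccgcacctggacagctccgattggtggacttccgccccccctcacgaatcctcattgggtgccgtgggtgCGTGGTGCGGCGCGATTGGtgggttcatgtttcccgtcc
PDIA6, chr2:10812833-10812891, minus strand: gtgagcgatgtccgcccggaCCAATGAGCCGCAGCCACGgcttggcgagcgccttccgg
CANX, chr5:179698758-179698816, plus strand: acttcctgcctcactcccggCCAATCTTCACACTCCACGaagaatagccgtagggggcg

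After siMENA11a, 8 of the 35 members were called higher than control and 12 lower. A gene was called where limma's p, adjusted by Benjamini and Hochberg over all 13498 tested genes, was under 0.05, and by that rule 27.9% of tested genes were higher and 27.7% lower. After siMENA, 6 members were called higher and 21 lower than control, where 23.7% and 25.8% of tested genes were. The counts by role below, in groups of 2 to 7 genes, stand against these same shares. The median log2 fold change of the members was -0.02 for siMENA11a and -0.19 for siMENA, and that of all tested genes was 0.01 in each comparison. Changes were small: 0 members changed by 2-fold in any comparison, and called changes of at least 1.5-fold counted 2 members for siMENA11a (EDEM1 and SSR3) and 4 for siMENA (CANX, ERN1, HSP90B1 and SEC62). Knockdown and control libraries did not overlap for 24 members after siMENA11a (62.9% of tested genes) and for 28 after siMENA (57.6%). Both comparisons use the same control libraries.

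These splits depend on how libraries are scaled. In TPM as deposited, where the median of all tested genes moves to -0.11 for siMENA11a and 0.09 for siMENA, 5 members were higher and 15 lower for siMENA11a, and 6 and 14 for siMENA. Over all genes, that fit called 1965 higher and 4904 lower for siMENA11a, and 3979 and 2300 for siMENA. With small and structured RNAs taken out and TPM rescaled, the counts were 12 higher and 9 lower, and 9 and 14. Over all genes the rescaled TPM gave 5116 higher and 2883 lower, and 5283 and 2312. With the scaling used here these were 3770 and 3733, and 3196 and 3478. Over all tested genes, higher genes made up 50.2% and 47.9% of calls, against 28.6% and 63.4% in TPM as deposited and 64.0% and 69.6% in the rescaled TPM. Under every setting tried, scaling and leaving out each library included, ERN1, XBP1, DNAJB9, HERPUD1 and SEC61G were called higher and SDF2L1, MANF, DNAJB11, CALR, EDEM1, SEL1L, SSR1 and SSR3 lower after siMENA11a, where tested: ERN1 fell below a filter at a mean of 5 scaled TPM. With the same exception, 5 rises (ERN1, EIF2AK3, XBP1, SYVN1 and HERPUD1) and 14 of the 21 falls were called under every setting after siMENA. In the siMENA group library 1 was the lowest for 25 of 35 members, and without it the counts against control were 6 higher and 18 lower. Over all genes that fit gave 2748 higher and 3159 lower. As these are bulk samples, less RNA of a gene per cell and fewer cells that express it cannot be told apart.

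**Figure D1:**
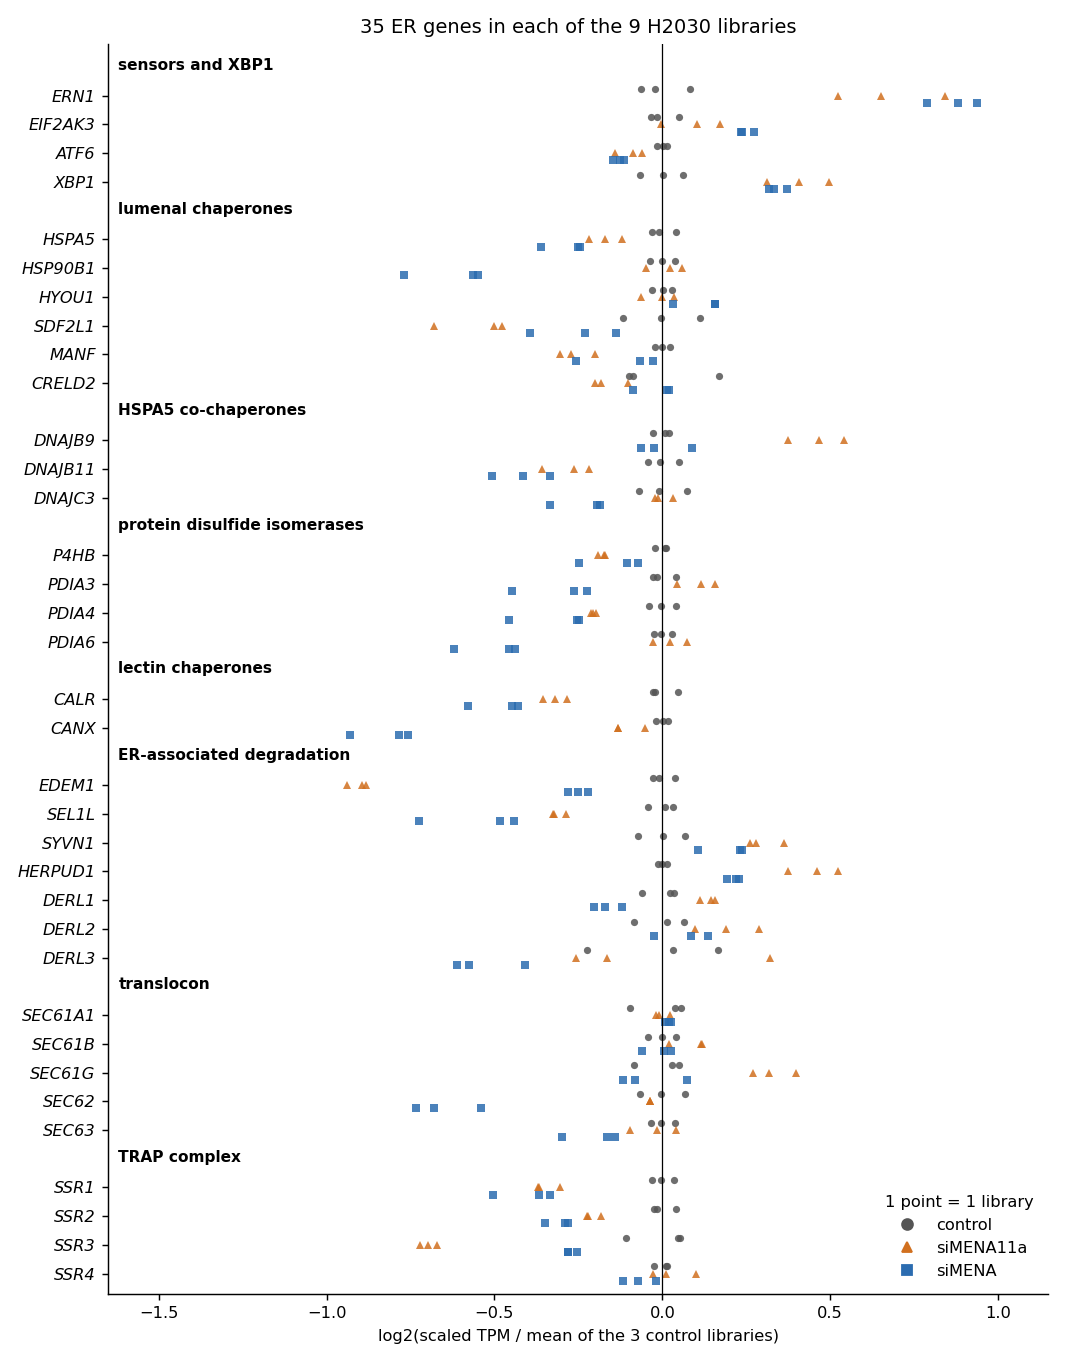
Each point is 1 library, placed at the log2 ratio of its scaled TPM to the mean of the 3 control libraries, for the 35 genes in order of role. All siMENA squares of the isomerases, lectin chaperones and TRAP subunits lie left of 0, ERN1 and XBP1 lie to the right in both knockdowns, and EDEM1 and SSR3 are lowest in siMENA11a.

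Among the sensors, ERN1 and XBP1 messenger RNA rose in both knockdowns. ERN1, the sensor kinase and nuclease IRE1, stood at 2.30, 2.14 and 2.08 scaled TPM in control libraries 1, 2 and 3, at 3.13, 3.42 and 3.90 in siMENA11a and at 3.76, 4.17 and 4.004 in siMENA. The 6 knockdown libraries all lay above the control libraries, while the knockdown groups overlapped each other. The log2 fold change was 0.57 ± 0.084 (standard error, adjusted p = 0.000342) for siMENA11a and 0.74 ± 0.084 (adjusted p = 8.38e-05) for siMENA. XBP1, the factor made active by IRE1, stood at 52.8, 48.3 and 50.7 scaled TPM in control, at 62.8, 67.1 and 71.4 in siMENA11a and at 63.7, 65.4 and 63.05 in siMENA. Again no knockdown library reached down to the controls, and both knockdowns overlapped. XBP1 rose by 0.40 ± 0.050 (adjusted p = 0.000112) and by 0.34 ± 0.050 (adjusted p = 0.00042). The value is summed over spliced and unspliced XBP1, so it says nothing of splicing.

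EIF2AK3, the kinase PERK, stood at 7.77, 7.33 and 7.42 scaled TPM in control, at 8.45, 8.07 and 7.48 in siMENA11a and at 8.85, 9.07 and 8.83 in siMENA. The siMENA libraries were the highest and did not overlap either group, while siMENA11a overlapped control. It rose by 0.23 ± 0.052 after siMENA (adjusted p = 0.0046) and was not called after siMENA11a (0.09 ± 0.052, adjusted p = 0.192). In the rescaled TPM EIF2AK3 was called higher after siMENA11a. ATF6 stood at 10.1, 10.3 and 10.2 scaled TPM in control, at 9.25, 9.78 and 9.61 in siMENA11a and at 9.21, 9.42 and 9.34 in siMENA. Both knockdowns lay below the controls without overlap, at mean levels of 9.55 and 9.32 against 10.2. Its fall of 0.12 ± 0.039 on the log2 scale after siMENA was called (adjusted p = 0.0256), but not in TPM as deposited, in the rescaled TPM or without control 2, control 3, siMENA 1 or siMENA 3. After siMENA11a ATF6 was not called (-0.09 ± 0.039, adjusted p = 0.0732), but was called lower in TPM as deposited. In the control libraries XBP1 was 4.96 times as abundant as ATF6, and ERN1 was among the 4 members under 10 scaled TPM, with EIF2AK3, DNAJB9 and DERL3.

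The lumenal chaperones mostly fell or stayed uncalled, 3 lower and 3 not called after siMENA11a, and 1 higher, 3 lower and 2 not called after siMENA. Of all tested genes, 27.7% were lower after siMENA11a, and 23.7% were higher and 25.8% lower after siMENA. HSPA5, the Hsp70 of the ER also called BiP, stood at 161, 159 and 167 scaled TPM in control, at 139.7, 144 and 149.7 in siMENA11a and at 126, 137 and 137 in siMENA. The control libraries were the highest, the siMENA libraries the lowest, and no groups overlapped. HSPA5 fell by 0.17 ± 0.041 on the log2 scale (adjusted p = 0.00657) after siMENA11a and by 0.28 ± 0.041 (adjusted p = 0.000379) after siMENA. The fall after siMENA11a was not called in the rescaled TPM or after quantile normalisation. HSP90B1, the Hsp90 of the ER also called GRP94, stood at 236, 230.2 and 242 scaled TPM in control, at 228, 239.8 and 246 in siMENA11a and at 138, 159.6 and 161 in siMENA. The siMENA libraries lay apart from all others, and siMENA11a overlapped control. HSP90B1 fell by 0.63 ± 0.058 on the log2 scale after siMENA (adjusted p = 2.24e-05) and was not called after siMENA11a (0.01 ± 0.058, adjusted p = 0.884).

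SDF2L1, a partner of HSPA5 and its co-chaperones, stood at 61.5, 56.8 and 66.7 scaled TPM in control, at 43.6, 44.3 and 38.5 in siMENA11a and at 46.9, 52.6 and 56.1 in siMENA. All knockdown libraries lay below the controls, with siMENA11a the lowest. It fell by 0.54 ± 0.081 on the log2 scale after siMENA11a (adjusted p = 0.000355). Its fall of 0.25 after siMENA (adjusted p = 0.029) was lost under 9 of the 20 other settings, among them leaving out control 1, control 3, siMENA 1 or siMENA 2. MANF, a secreted factor induced by ER stress, fell by 0.26 ± 0.056 after siMENA11a, from 118 ± 1.94 to 98.8 ± 3.68 scaled TPM (SD, n = 3). MANF was not called after siMENA (109 ± 8.99), but was called lower without siMENA 2. HYOU1, the large Hsp70 relative that exchanges the nucleotide of HSPA5, was at 113 ± 2.28 in control and 113 ± 3.83 in siMENA11a, and its rise to 123 ± 6.13 in siMENA (adjusted p = 0.0448) was lost under 9 other settings, among them leaving out any 1 control library or siMENA 2 or 3. CRELD2, an isomerase-like lumenal protein, was not called in either comparison, though its siMENA11a libraries all lay below control. It was called lower after siMENA11a in TPM as deposited and without control 1.

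Of the J-domain co-chaperones that drive the ATPase of HSPA5, each had its own pattern. DNAJB9, also called ERdj4, stood at 5.69, 5.64 and 5.50 scaled TPM in control, at 7.27, 8.16 and 7.75 in siMENA11a and at 5.97, 5.51 and 5.37 in siMENA. The siMENA11a libraries lay above both other groups, and siMENA overlapped control. DNAJB9 rose by 0.43 ± 0.059 after siMENA11a (adjusted p = 0.000215), with 0.00 ± 0.059 after siMENA (adjusted p = 0.997). DNAJB11, which brings clients to HSPA5, fell in both knockdowns, from 29.7 ± 0.958 to 24.5 ± 1.20 and 22.2 ± 1.33 scaled TPM. DNAJC3, a co-chaperone known to inhibit PERK, was not called in siMENA11a (15.5 ± 0.316, against 15.5 ± 0.778 in control) and fell to 13.2 ± 0.747 in siMENA, a call lost in TPM as deposited and in the rescaled TPM.

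All 4 protein disulfide isomerases, which make and reshuffle disulfide bonds, were called lower after siMENA, and 2 of 4 after siMENA11a. Lower calls made up 25.8% and 27.7% of all tested genes in the same order. Most marked was PDIA6, at 254, 250.3 and 260.1 scaled TPM in control, at 249.9, 259 and 268 in siMENA11a and at 166, 188 and 186 in siMENA. The siMENA libraries stood apart below, and siMENA11a overlapped control. PDIA6 fell by 0.50 ± 0.049 on the log2 scale after siMENA (adjusted p = 3.17e-05) and was not called after siMENA11a (0.02 ± 0.049). PDIA3, the isomerase that works with the lectin chaperones, fell from 164 ± 4.15 to 132 ± 10.7 scaled TPM in siMENA and was at 177 ± 7.05, not called, in siMENA11a. Its siMENA11a libraries all lay above control, and it was called higher there in the rescaled TPM and without siMENA 1. PDIA4 fell from 137 ± 3.84 to 119 ± 0.599 in siMENA11a, a call lost in the rescaled TPM, and to 109.8 ± 8.79 in siMENA. P4HB, the abundant isomerase PDI, was 449 ± 5.69 in control and fell to 397 ± 3.49 in siMENA11a and 408 ± 26.0 in siMENA. Those P4HB calls were both lost in the rescaled TPM. After quantile normalisation the siMENA11a call was lost and the siMENA estimate was above 0. The siMENA call of P4HB was also lost in TPM as deposited and without control 2 or control 3.

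Calreticulin and calnexin, the lectin chaperones that hold glycoproteins during folding, were both called lower after siMENA, and calreticulin after siMENA11a as well. CANX, the membrane-bound calnexin, stood at 185, 183 and 180.4 scaled TPM in control, at 167, 167 and 176 in siMENA11a and at 95.8, 106 and 108 in siMENA. The siMENA libraries were far below the other groups, while siMENA11a lay just below control. CANX fell by 0.82 ± 0.046 on the log2 scale after siMENA (adjusted p = 1.09e-06), the largest change of any member in that comparison. After siMENA11a it was not called (-0.10 ± 0.046, adjusted p = 0.0804), but was called lower in TPM as deposited, in a fit of the compared groups alone and without siMENA 1. CALR, the soluble calreticulin and the most abundant member, fell from 569 ± 16.7 scaled TPM in control to 456 ± 11.5 in siMENA11a (-0.32 ± 0.045, adjusted p = 0.000261) and 407 ± 22.5 in siMENA (-0.48 ± 0.045, adjusted p = 2.4e-05). Summed over both genes, the level was 83.3% of control in siMENA11a and 67.9% in siMENA.

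ER-associated degradation genes split, with 4 higher, 2 lower and 1 not called after siMENA11a, and 2, 4 and 1 after siMENA. All tested genes were 27.9% higher and 27.7% lower after siMENA11a, and 23.7% and 25.8% after siMENA. The 2 lower after siMENA11a and the 2 higher after siMENA, each 28.6% of the group, are thus near those shares. EDEM1, which hands misfolded glycoproteins to degradation, stood at 22.6, 23.3 and 22.3 scaled TPM in control, at 12.3, 12.2 and 11.9 in siMENA11a and at 18.7, 19.5 and 19.1 in siMENA. All 3 groups were separate, with siMENA11a far the lowest. EDEM1 fell by 0.88 ± 0.036 on the log2 scale after siMENA11a (adjusted p = 1.31e-07), the largest change of any member there, and by 0.24 ± 0.036 after siMENA (adjusted p = 0.000396). SEL1L, the scaffold of the HRD1 ubiquitin ligase, stood at 36.7, 34.9 and 36.1 scaled TPM in control, at 28.7, 28.7 and 29.4 in siMENA11a and at 21.7, 25.7 and 26.4 in siMENA. Both knockdowns lay below control without overlap, and siMENA was the lower. Its log2 fold changes were -0.31 ± 0.064 (adjusted p = 0.00274) and -0.54 ± 0.064 (adjusted p = 0.000111).

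HERPUD1, an ER membrane protein that joins the HRD1 complex, went the other way. It stood at 31.6, 32.1 and 31.8 scaled TPM in control, at 41.3, 43.8 and 45.7 in siMENA11a and at 37.0, 37.3 and 36.4 in siMENA. Every siMENA11a library was above every siMENA library, and those above every control library. HERPUD1 rose by 0.45 ± 0.039 (adjusted p = 1.1e-05) and by 0.21 ± 0.039 (adjusted p = 0.00158). SYVN1, which encodes HRD1 itself, rose from 18.0 ± 0.864 to 22.2 ± 0.848 scaled TPM in siMENA11a and 20.6 ± 1.03 in siMENA, the first of which was lost in TPM as deposited. The derlins, channel-forming proteins of the pathway, were not uniform. DERL1 was 30.2 ± 1.06 in control, 33.3 ± 0.526 in siMENA11a (higher) and 26.9 ± 0.798 in siMENA (lower), but the first call was lost in TPM as deposited and the second in all 3 other scalings. DERL2 rose to 39.2 ± 2.59 in siMENA11a from 34.3 ± 1.79, a call lost in TPM as deposited and without control 2, siMENA11a 2 or siMENA11a 3. DERL3, the least abundant member in control (1.69 ± 0.227), was called lower in siMENA (1.17 ± 0.090, adjusted p = 0.0402), a call lost under 8 other settings, among them leaving out control 1, control 3 or any siMENA library.

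Against control, 2 of the channel's own subunits were not called with the scaling used here. SEC61A1, which forms the pore, stood at 111, 109 and 99.7 scaled TPM in control, at 108, 105 and 106 in siMENA11a and at 108, 107 and 108 in siMENA. All groups overlapped, and its log2 fold changes were 0.00 ± 0.039 and 0.02 ± 0.039. SEC61B was not called either (113 ± 3.34, 119.9 ± 4.62 and 112 ± 3.47). In the rescaled TPM and after quantile normalisation SEC61A1 was called higher after siMENA and SEC61B higher after siMENA11a, the latter also without siMENA11a 3. SEC61G, the third subunit of the channel, rose from 124 ± 6.16 to 156 ± 7.19 scaled TPM in siMENA11a (0.33 ± 0.058, adjusted p = 0.000978) and was at 121 ± 8.63, not called, in siMENA. SEC62, which helps short precursors and post-translational entry, stood at 11.9, 11.4 and 10.9 scaled TPM in control, at 11.1, 11.1 and 11.1 in siMENA11a and at 6.85, 7.83 and 7.10 in siMENA. The siMENA libraries stood apart below both other groups. SEC62 fell by 0.62 ± 0.056 on the log2 scale (adjusted p = 2.01e-05). Its partner SEC63, a J-domain protein of the same membrane, fell from 13.0 ± 0.334 to 11.3 ± 0.659 in siMENA, a call lost in TPM as deposited and in the rescaled TPM, and was not called in siMENA11a (12.8 ± 0.608). In control SEC61A1 was 9.37 times as abundant as SEC62.

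TRAP, which sits beside the channel and helps some signal peptides to open it, had 3 of its 4 subunits called lower in each knockdown. Among all tested genes 27.7% were lower after siMENA11a and 25.8% after siMENA. SSR3 stood at 58.9, 58.7 and 52.7 scaled TPM in control, at 35.6, 34.97 and 34.4 in siMENA11a and at 47.6, 46.7 and 46.7 in siMENA. Groups did not overlap, and siMENA11a was the lowest. SSR3 fell by 0.69 ± 0.044 (adjusted p = 1.63e-06) and by 0.27 ± 0.044 (adjusted p = 0.000774) on the log2 scale. SSR1 fell from 27.7 ± 0.649 to 21.8 ± 0.561 and 21.0 ± 1.29, and SSR2 from 315 ± 8.02 to 273 ± 4.28 and 255 ± 6.28, with the SSR2 call after siMENA11a lost after quantile normalisation. SSR4 was not called (137 ± 2.00, 139 ± 6.34 and 130.4 ± 4.52), but was called higher after siMENA11a in the rescaled TPM. The subunits of this 1 complex were not level with each other, as SSR2 was 11.4 times as abundant as SSR1 in control.

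Summed by role, the sensors with XBP1 were the group furthest above control, at 125% of the control sum in siMENA11a and 122% in siMENA, and XBP1 makes up most of that sum. The lumenal chaperones stood at 91.8% and 83.1%, the co-chaperones at 93.9% and 80.7%, the isomerases at 94.6% and 82.6% and TRAP at 87.4% and 84.5%. ER-associated degradation stood at 104% and 94.6%, and the translocon at 110% and 97.7%. All 35 members together summed to 3677 ± 33.1 scaled TPM for control, to 3431 ± 31.8 for siMENA11a and to 3044 ± 134 for siMENA (SD, n = 3), so siMENA was at 82.8% of control and siMENA11a at 93.3%. These sums depend on the scaling. In TPM as deposited the members' sum ran from 3647 to 3802 for control, 3023 to 3374 for siMENA11a and 3052 to 3382 for siMENA. There the knockdowns overlapped each other, and TRAP was lowest in siMENA11a (420 to 453, against 470 to 496 in siMENA). The siMENA11a translocon sum then overlapped control (369 to 384, against 360 to 379), and the lectin sums of the knockdowns overlapped. The median coefficient of variation of a member over 3 libraries was 2.81% in control, 3.72% in siMENA11a and 5.55% in siMENA.

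**Figure D2:**
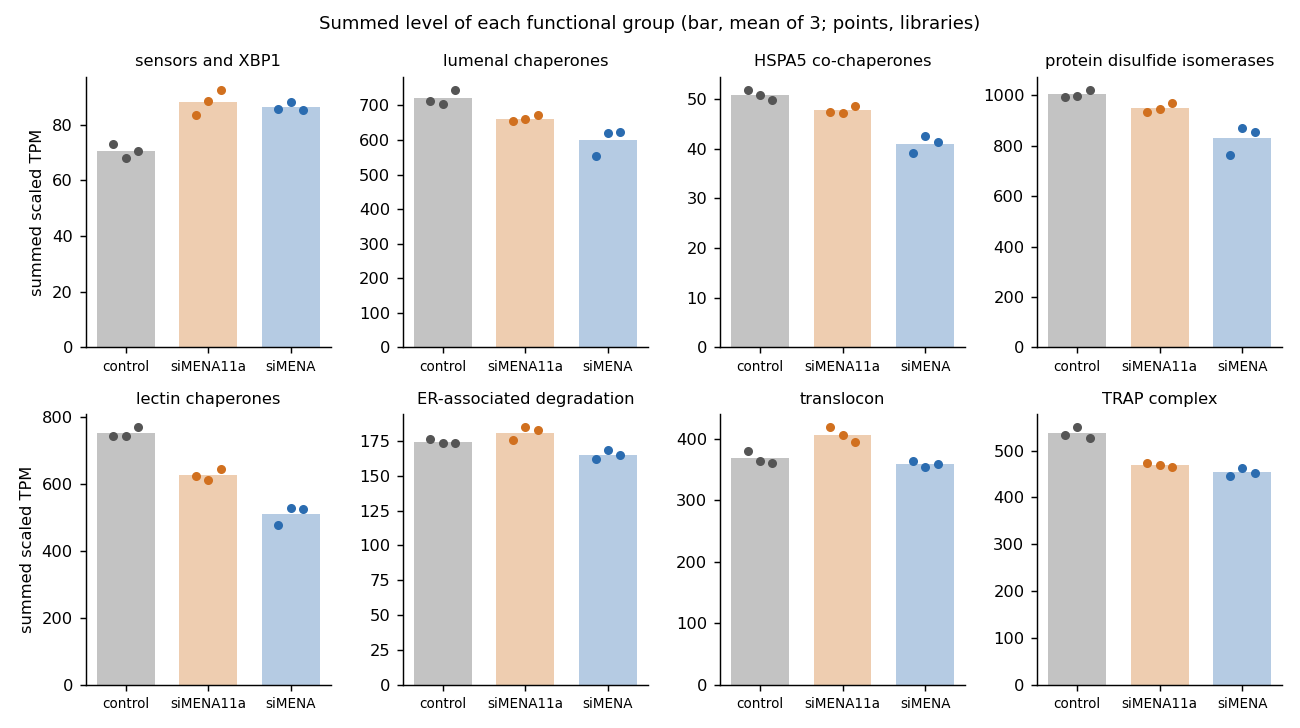
Summed scaled TPM of each role group, with bars for the mean of 3 libraries and points for the libraries, each panel with its own axis from 0. The lectin chaperones step down from control to siMENA11a to siMENA, the sensors with XBP1 are higher in both knockdowns, and siMENA library 1, drawn first of its group, is the lowest for the isomerases and lumenal chaperones.

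Set against each other, 17 members were higher in siMENA11a than in siMENA and 5 were lower, where 29.5% and 29.2% of tested genes were. The member median was 0.11 and that of all tested genes 0.00, and siMENA11a libraries did not overlap siMENA libraries for 23 members (65.1% of tested genes). CANX led the difference with 0.72 ± 0.046 (adjusted p = 1.1e-06), followed by HSP90B1 with 0.64 ± 0.058 (adjusted p = 1e-05), SEC62 with 0.58 ± 0.056 (adjusted p = 1.49e-05), PDIA6 with 0.53 ± 0.049 (adjusted p = 1.24e-05) and DNAJB9 with 0.43 ± 0.059 (adjusted p = 0.000168). For CANX, HSP90B1, SEC62 and PDIA6 it was the siMENA libraries that lay apart from control, and for DNAJB9 the siMENA11a libraries. EDEM1 (-0.63 ± 0.036, adjusted p = 5.14e-07), SSR3 (-0.42) and SDF2L1 (-0.30) were lower in siMENA11a. PDIA3 (0.42), DERL3 (0.37), SEC61G (0.37), DERL1 (0.30), HERPUD1 (0.24), SEL1L (0.23) and DNAJC3 (0.23) were higher. ERN1 (-0.17 ± 0.084, adjusted p = 0.106), XBP1 (0.07 ± 0.050, adjusted p = 0.29) and ATF6 (0.03 ± 0.039, adjusted p = 0.506) were not called.

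The smallest of these differences turned with the scaling. HSPA5 (0.12), DNAJB11 (0.14), CALR (0.17), SEC63 (0.17) and SSR2 (0.10) were called higher in siMENA11a, but their estimates lay below 0 in TPM as deposited, where the median of all tested genes moves to -0.20. The calls of DNAJB11, HSPA5, SSR2 and SEC63 were also lost under 13, 7, 5 and 3 further settings, leaving out single libraries among them. In TPM as deposited 7 members were higher and 13 lower (24.3% of all calls were higher, against 50.3%), and in the rescaled TPM 12 and 7. Without siMENA library 1, the counts were 12 higher and 6 lower, and the number lower was 3 without siMENA11a 2, siMENA 2 or siMENA 3. EIF2AK3 (-0.15) and HYOU1 (-0.13) were called lower, but not under 6 and 5 of the other settings. MANF (-0.14, adjusted p = 0.0528) and CRELD2 (-0.14, adjusted p = 0.107) were not called, but were called lower under 7 and 4 other settings. For MANF these include all 3 other scalings. The call of DERL3 was lost under 10 of them, among them leaving out control 3, siMENA11a 3 or any siMENA library, and those of DERL1, HERPUD1, SEL1L and DNAJC3 in TPM as deposited. HSP90B1, DNAJB9, PDIA3, PDIA6, CANX, SEC61G and SEC62 were called higher and SDF2L1, EDEM1 and SSR3 lower under every setting tried.

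**Figure D3:**
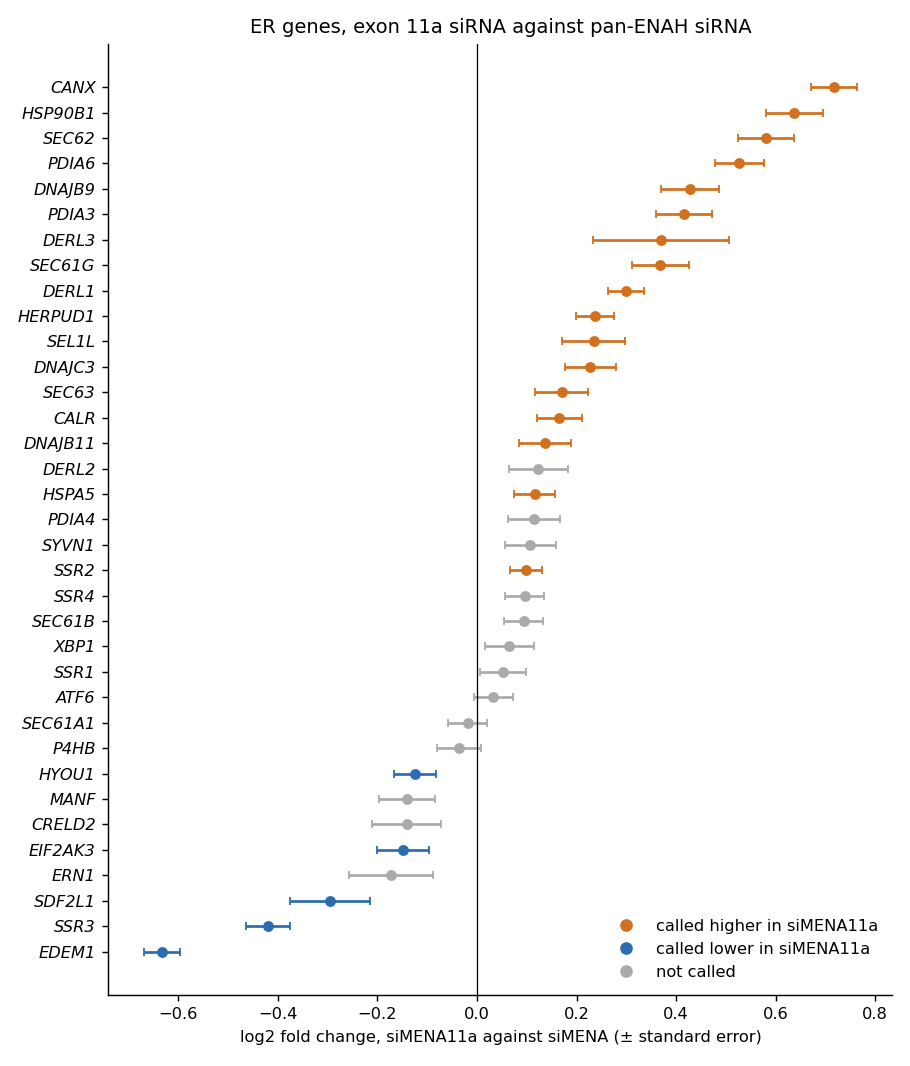
Log2 fold change of siMENA11a against siMENA for each of the 35 genes, sorted, with bars of 1 standard error from the fit over 9 libraries. CANX, HSP90B1, SEC62 and PDIA6 lie furthest to the right, between 0.53 and 0.72, and EDEM1, SSR3 and SDF2L1 furthest to the left.

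Members with an ER stress element were called in both directions, as the stretches above show. An ERSE was found in 7 of the 32 matched members (21.9%; XBP1, HSPA5, HSP90B1, CRELD2, PDIA6, CALR and CANX) and in 25 of 27305 genes of the promoter table (0.0916%), which include these members. ERSE-II was found in 3 members (HYOU1, SDF2L1 and HERPUD1) and 19 genes of the table (0.0696%). Among the 9462 tested genes with an entry the shares were 0.159% for ERSE and 0.148% for ERSE-II. As ERSE are known from the promoters of chaperone genes, a high share among the members is partly built in. HSP90B1 holds 2 ERSE and HYOU1 2 ERSE-II. The core of the XBP1 element UPRE (TGACGTGG) was found in HYOU1, where it overlaps an ERSE-II, and in SEC62, SSR3 and SSR4, and in 0.927% of the table's genes. The CCAAT box (CCAAT), which is part of ERSE and of ERSE-II, was found in 27 members (84.4%) and 39.7% of the table's genes. These are letter matches in a window and no measure of binding. PDIA3, DERL1 and DERL3 were not matched.

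The 10 members with an ERSE or ERSE-II were called 2 higher, 3 lower and 5 not in siMENA11a against control (median log2 fold change -0.06), and 3 higher, 6 lower and 1 not in siMENA against control (median -0.27). The 22 matched members with neither were called 5 higher, 9 lower and 8 not (median -0.03), and 3, 12 and 7 (median -0.13). In siMENA11a against control, these counts of the 10 lie near the 27.9% higher and 27.7% lower of all tested genes. In siMENA against control the shares of all tested genes were 23.7% and 25.8%. Of 19 other tested genes with either element, 6 were higher and 7 lower in siMENA11a and 2 and 10 in siMENA. XBP1 (0.40) and HERPUD1 (0.45) mark the top of the 10 in siMENA11a, with SDF2L1 (-0.54) and CALR (-0.32) at the bottom.

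**Figure D4:**
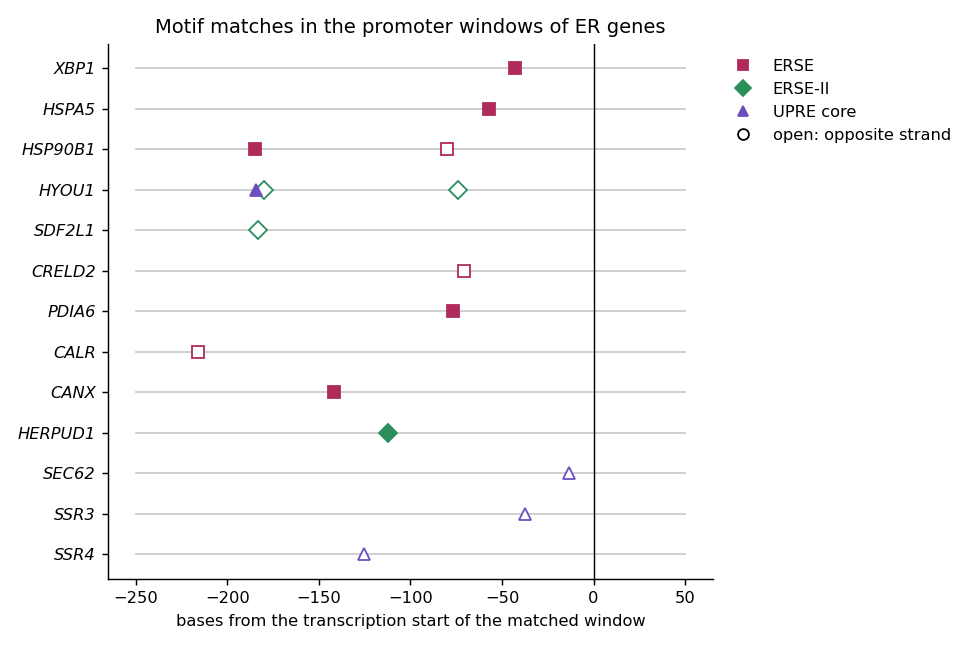
Position of each motif match, in bases from the annotated transcription start, in the promoter windows of the 13 genes with an ERSE, ERSE-II or UPRE core. Open symbols are matches on the opposite strand, and matches lie upstream of the start.

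Around the 35 members, 103 further genes of the ER pathway were listed and 102 tested, with 38 higher and 25 lower after siMENA11a, and 20 higher and 49 lower after siMENA. As shares of those tested this is 37.3% and 24.5%, where 27.9% and 27.7% of all tested genes were called, and 19.6% and 48.0%, where 23.7% and 25.8% were. The counts of each list below, most of them of 10 to 19 genes, stand against the same shares of all tested genes. The PERK and ATF4 arm had 8 of 12 higher and 1 lower after siMENA11a, and 3 higher and 4 lower after siMENA, the latter 25% and 33.3% of the list and so near the shares of all tested genes. DDIT3, the stress factor CHOP, stood at 9.44, 8.89 and 8.04 scaled TPM in control, at 13.8, 16.8 and 17.6 in siMENA11a and at 9.87, 10.3 and 9.69 in siMENA. The siMENA11a libraries stood above both other groups. DDIT3 rose by 0.83 ± 0.089 after siMENA11a (adjusted p = 4.47e-05) and was not called after siMENA (0.17, adjusted p = 0.138). The same arm's CHAC1, a glutathione-degrading enzyme, rose by 2.22 ± 0.13 after siMENA11a. SESN2, a stress-induced regulator of mTORC1, rose by 1.73, and ASNS, asparagine synthetase, by 1.06. ATF4 rose by 0.32 ± 0.041 and ATF3 by 0.67 ± 0.12 after siMENA11a, where TRIB3 was not called. After siMENA, ATF4 fell by 0.58 ± 0.041 on the log2 scale, from 136 ± 4.45 to 90.8 ± 2.65 scaled TPM, ATF3 fell by 0.55 and TRIB3 rose by 0.44.

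In the list of ATF6 processing and related factors, 2 rose and 3 fell of 10 tested after siMENA11a, and 1 and 5 after siMENA. NFYA, a subunit of the CCAAT-binding factor NF-Y, fell by 1.01 ± 0.054 after siMENA11a, while its partner NFYB rose by 0.46, and MBTPS1, the Golgi protease that first cuts ATF6, fell by 0.45. After siMENA it was MBTPS2, the second protease (-0.46), ATF6B (-0.46) and WFS1 (-0.40) that fell most. Oligosaccharyltransferase and glycan trimming had 4 higher and 4 lower of 15 after siMENA11a, 26.7% each way and so at the background (OSTC 0.54, MOGS 0.43, STT3A -0.41) and 4 and 9 after siMENA (OSTC -0.51, STT3B -0.47, MAN1B1 0.43). OSTC, a subunit that couples the enzyme to the translocon, was thus 1.05 ± 0.054 higher in siMENA11a than in siMENA. Other folding enzymes had 4 and 4 of 18, with the isomerases TXNDC5 (-0.97) and TXNDC12 (-0.83) lower and ERP44 (0.69) higher, and 3 and 9 after siMENA, with the oxidases ERO1L (-0.66) and ERO1LB (-0.55) and TXNDC12 (-0.54) lower.

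Other degradation genes had 8 higher and 4 lower of 16 after siMENA11a, with the EDEM1 relatives EDEM3 (0.51) and EDEM2 (0.47) higher while EDEM1 itself fell, and UFD1L (-0.46) lower. After siMENA 4 were higher and 9 lower, with HERPUD2 (-1.47), a relative of HERPUD1, and FAF2 (-0.64) lower and EDEM3 (0.33) higher. Targeting and signal peptidase genes had 3 and 4 of 12 after siMENA11a, with the receptor of the signal recognition particle SRPR (-1.12) lower and SPCS3 (0.40) and CAMLG (0.32) higher, and 1 and 5 after siMENA, with WRB (0.38) higher and SRPR (-0.37) and TRAM1 (-0.29) lower. Export by COPII coats and retrieval of KDEL proteins had 9 and 5 of 19 after siMENA11a, led by the coat subunit SEC23B (-1.29), PREB (-0.95), which activates the coat's GTPase, and SEC24A (0.52). After siMENA it had 4 and 8, led by SEC24A (-0.54), SAR1B (-0.39) and SEC23B (0.23).

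An earlier analysis of these data named 7-base words in 3′ untranslated regions whose carriers fell most after each siRNA, CAAGGAA and CCAAGGA for siMENA11a and CAGAATA or AGAATAA or CAGCGTA or AGCGTAA for siMENA. As the words were picked on these comparisons, the shares are partly built in. In the GENCODE 29 annotation (GRCh38), the siMENA11a words were found in 13 of 35 members (37.1%), among them 5 of the 12 called lower (HSPA5, P4HB, SEL1L, SSR1 and SSR3), 2 of the 8 called higher and 6 of the 15 not called. Over 11315 tested genes searched, 25.8% held a word, and 33.1% of those called lower. Of those called higher 20.8% held one, and of those not called 24.0%. The siMENA words were found in 10 members (28.6%), among them 8 of the 21 called lower (ATF6, HSPA5, PDIA6, CANX, EDEM1, SEC62, SEC63 and SSR1), against 30.1% of genes searched and 41.0% of those called lower. They were also found in 1 of the 6 members called higher (ERN1) and 1 of the 8 not called (SEC61G). Of genes searched, 23.3% of those called higher and 27.3% of those not called held one. The siMENA11a words were in 22.5% of the 102 tested pathway genes, 36% of the 25 called lower and 15.8% of the 38 called higher. The siMENA words were in 29.4% of the 102, 40.8% of the 49 called lower and 20% of the 20 called higher. Of the pathway falls named for siMENA11a, NFYA, PREB, SRPR and TXNDC12 hold a word, and MBTPS1, SEC23B, STT3A, TXNDC5 and UFD1L hold none. Of those named for siMENA, ATF3, ATF6B, ERO1L, ERO1LB, FAF2, HERPUD2, MBTPS2, SAR1B, SEC24A and STT3B hold one. ATF4, OSTC, SRPR, TRAM1, TXNDC12 and WFS1 hold no siMENA word. The part of these words in the changes was not tested.

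Exons of 17 members overlap exons of a gene on the opposite strand in the same annotation, EDEM1, CALR, PDIA6, PDIA3, DNAJB9 and DNAJB11 among them. The library kit keeps strand, but whether the authors' quantification used it is not given in the sources used here, so reads of these pairs may not be told apart. Pseudogenes of PDIA3 and SSR4 are in the table, at no more than 6.69 and 2.2 TPM, and could share reads with their parents.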

How the data were processed

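The authors deposited 1 table of TPM (transcripts per 1000000, 2 decimals) for 29972 genes in 9 libraries, each summing to 1000000 within rounding. Per the submitters' processing notes, kallisto and the build GRCh37 were used, in roles that are not stated. How reads were aligned and counted, and whether strand was used, is not given in the sources used here. Depth cannot be read from TPM, so counting error is unknown.

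The deposited TPM were divided by a median-of-ratios size factor per library (12341 genes). limma 3.58.1 (R 4.3.3) was fitted to log2(scaled TPM + 0.5) of genes with a mean of at least 0.5. The fit held all 9 libraries and a mean for each of the 3 groups, used eBayes with a trend, and was adjusted by Benjamini and Hochberg over all tested genes. Log2 fold changes of low genes are understated by the added 0.5. The script was tested on simulated data. Groups follow the sample titles.

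The members, gene lists and rules were chosen with earlier results of these data known. Values in each library are given for 8 genes fixed by role and for the 6 largest called changes among members per comparison, and up to 3 genes are named per pathway list. The 20 alternatives were other scalings, pseudocounts, filters and fit options, a replicate block and leaving out each library. Promoters, matched by symbol, came from RefSeq (GRCh38.p14), and 3′ untranslated regions and overlaps from GENCODE 29 (GRCh38).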

Additional observations from a re-analysis of the deposited data

How the results depend on the processing

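Member calls were recomputed under 20 alternatives. In TPM as deposited, 5 members were higher in siMENA11a against control, and 7 were higher and 13 lower in siMENA11a against siMENA. Leaving out 1 library at a time gave 7 to 9 members higher and 12 to 13 lower in siMENA11a against control, 5 to 6 and 17 to 21 in siMENA against control, and 12 to 17 and 3 to 6 in siMENA11a against siMENA. Among genes called in either fit of a pair, estimates that changed sign in TPM as deposited were HERPUD2 (-0.0089) and ENAH (-0.014) in siMENA11a against control. In siMENA11a against siMENA they were ATF6 (-0.17), HSPA5 (-0.10), DNAJB11 (-0.077), CALR (-0.052), SEC61B (-0.12), SEC63 (-0.039), SSR2 (-0.12), SSR4 (-0.12) and EDEM3 (-0.019). In siMENA against control the sign of such genes changed for SEC61B in the rescaled TPM (0.11) and after quantile normalisation (0.13), and for P4HB after the latter (0.050). Members called in neither fit also changed sign: in TPM as deposited 7 in siMENA11a against control, 4 in siMENA against control (SEC61B among them) and 5 in siMENA11a against siMENA. The cause was not tested beyond the construction of these scalings.

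The labels state no pairing of the libraries by replicate number. Same-numbered libraries of different groups had correlations of -0.065 to 0.058 in their deviations from group means, and differently numbered ones -0.064 to 0.10. In 10 of 18 comparisons a library correlated best with its own number. Whether the numbers mark a pairing cannot be settled from these values. With the replicate block, 8 members were higher and 12 lower in siMENA11a against control, 6 and 20 in siMENA against control, and 16 and 5 in siMENA11a against siMENA. Over all genes these were 3660 and 3649, 3026 and 3360, and 3916 and 3816. Depth is unknown from TPM, and DERL3 and ERN1, the lowest members, had no value under a filter at a mean of 5.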
